A study of Mus musculus with 23 samples.

Results

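The glucocorticoid receptor and the genes around it were examined in the ileum of male mice. The set was chosen by gene name, with earlier results of these data known. It holds 10 genes, *Nr3c1*, *Fkbp5*, *Tsc22d3*, *Sgk1*, *Klf9*, *Zfp36*, *Dusp1*, *Cyp11a1*, *Hsd11b1* and *Hsd11b2*, of the 23912 gene names that had a probe in the deposited table. The array carried 18 probes with these names, and 14 of them, covering all 10 genes, were in the table and were well above background on all 23 arrays. Each gene is represented by its brightest probe in the table, with further probes given beside it. Samples came from wild-type (WT) C57BL/6J mice and from *Pxr*-/- mice, in which *Nr1i2*, the gene of the xenobiotic sensor pregnane X receptor (PXR), is disrupted and which had been backcrossed to the same background. The treatment was pregnenolone 16α-carbonitrile (PCN), given by intraperitoneal injection at 100 mg/kg in corn oil, once daily over 4 days. The control mice (CONT) had the oil alone. Mice had free access to food and were killed at ZT6, when 6 h had gone by since the last dose. There was 1 array per mouse, with 6 mice of each genotype under CONT, and under PCN 6 *Pxr*-/- and 5 WT mice. WT mice were bought at 6 weeks of age and *Pxr*-/- mice had been bred in house for 10 years, so genotype and breeding origin cannot be told apart. Mice were acclimatized for 2 weeks before they were allocated to groups. The age of the *Pxr*-/- mice is not given in the sources used here.

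The glucocorticoid receptor, encoded by *Nr3c1*, is a steroid-activated transcription factor. Without hormone it is held in the cytoplasm by heat shock protein 90 and its co-chaperones. After binding corticosterone, the main glucocorticoid of mice, it enters the nucleus, binds response elements in DNA and raises genes that limit inflammation and adjust metabolism, several of which feed back on the receptor itself. The intestinal mucosa also makes and regenerates glucocorticoids on its own. PCN is best known as a ligand of mouse PXR, and as a steroid that opposes glucocorticoid action. The question for the 4 groups was whether these genes differed after PCN in both genotypes, that is, without need of PXR.

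Promoter sequences of 2 members are shown because *Fkbp5* carried the clearest difference below and *Sgk1* held the only full response element found. They are the 250 bases before a transcription start in RefSeq, build GRCm38.p6. The element searched was GNACA, then any 3 bases, then TGTNC, with N for any base. It reads the same on both strands. Capitals mark the match.
Sgk1, chr10:21993640-21993889, plus strand: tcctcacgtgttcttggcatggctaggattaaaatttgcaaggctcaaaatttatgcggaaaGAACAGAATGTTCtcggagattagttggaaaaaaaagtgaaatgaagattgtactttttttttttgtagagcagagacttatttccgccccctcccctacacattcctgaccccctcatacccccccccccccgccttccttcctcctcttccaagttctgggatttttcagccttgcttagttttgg
Fkbp5, chr17:28486150-28486399, minus strand: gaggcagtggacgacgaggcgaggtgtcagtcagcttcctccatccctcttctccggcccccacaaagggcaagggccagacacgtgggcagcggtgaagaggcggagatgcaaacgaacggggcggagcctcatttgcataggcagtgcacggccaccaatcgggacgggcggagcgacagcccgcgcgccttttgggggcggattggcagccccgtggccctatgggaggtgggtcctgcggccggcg
The *Sgk1* match begins 188 bases before this start, which is 1 of 6 starts listed for the gene. Of all 32851 promoter windows of this length, 0.387% held a match, and of 16 windows of 8 members 1 did. The shorter motif AGAACA, 1 arm of the element, searched on both strands and overlapping the full element in part, was in 16.1% of all windows and in 4 of the 16, 3 of *Sgk1* and 1 of *Tsc22d3*. *Nr3c1* was left out of the member windows by choice, and *Hsd11b2* had no window. The known response elements of *Fkbp5* lie in its introns, outside this window, so the missing match says nothing about binding.

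The arrays were of even quality. Between 60.9% and 67.3% of probes were well above background, at most 2 spots were saturated, and an array's median correlation with others of its group, taken over probes, lay between 0.990 and 0.995. The tissue carried the ileal markers *Fabp6* and *Slc10a2* on all arrays. *Cyp3a11*, the standard PXR target, was higher after PCN by 3.53 on the log2 scale in WT (SE 0.324, adjusted p = 1.49e-06) and differed by -0.05 in *Pxr*-/- mice (SE 0.308, adjusted p = 0.952). The *Nr1i2* probe read 0.41 lower in *Pxr*-/- CONT than in WT CONT (adjusted p = 0.334). Its position relative to the deleted part of the gene is not known here, so it does not check the labels.

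A probe was called when its adjusted p was at most 0.05 and its change above 1.5-fold, in a limma fit over all 37161 probes. By this rule 0.692% of probes were called for PCN in WT (0.600% upward) and 0.947% in *Pxr*-/- mice (0.724% upward). For the effect averaged over both genotypes the shares were 0.939% and 0.743%. Of the 10 members, *Fkbp5* was called in each of these 3 comparisons, upward, and no other member was. The median difference over the members was 0.18 in WT, 0.10 in *Pxr*-/- mice and 0.12 on average, beside -0.01 over all probes in each. Members were higher after PCN in 7, 8 and 8 cases of 10, by any amount, beside 45.1%, 47% and 46.2% of all probes. In bulk tissue, more cells of a type and more RNA per cell cannot be told apart.

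**Figure D1:**
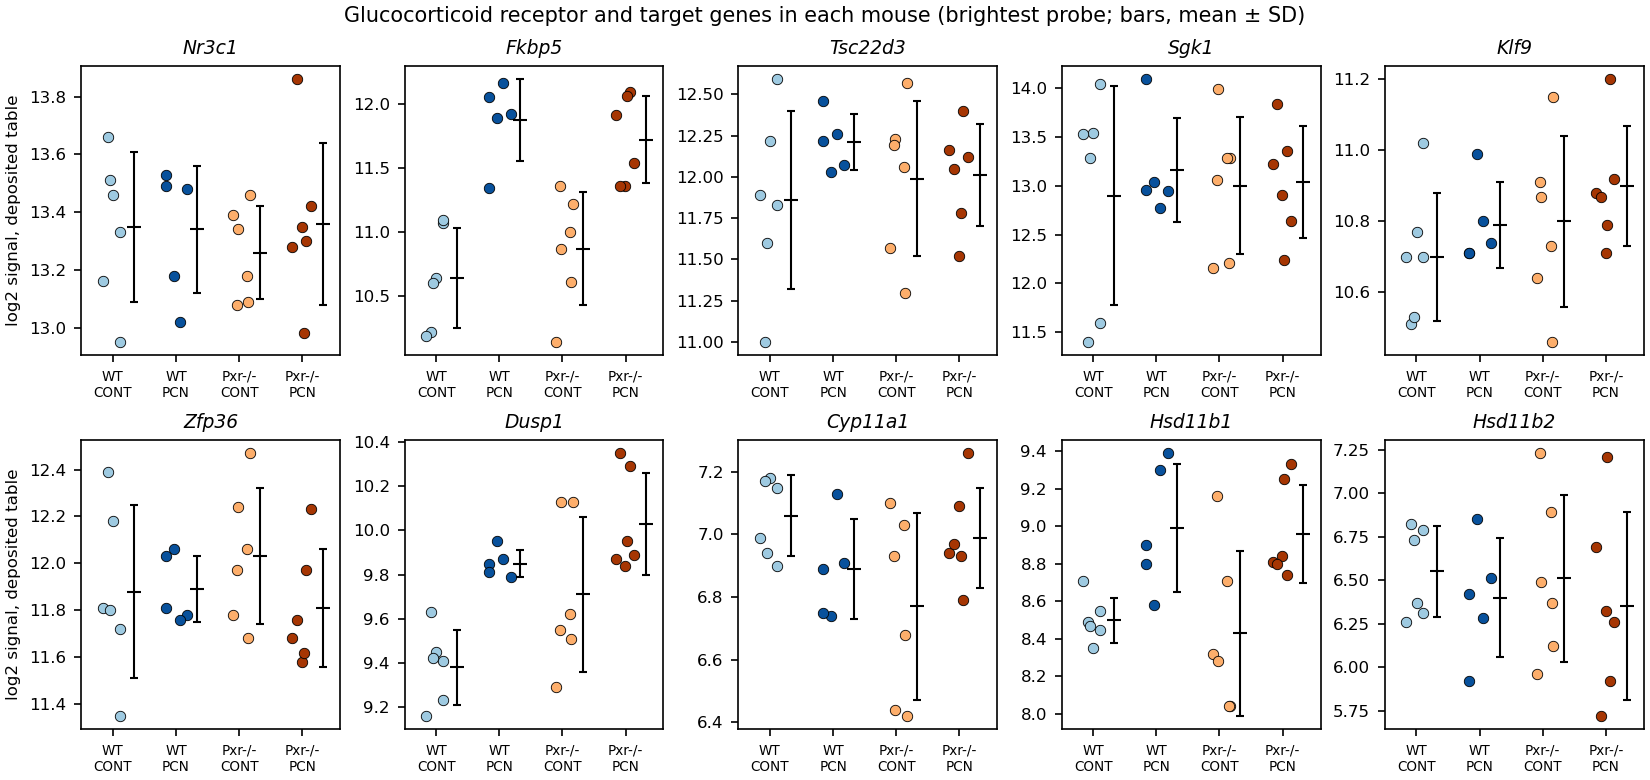
Log2 signal in the deposited table for the brightest probe of each member, 1 point per mouse, with mean ± SD beside the points. The 5 WT PCN mice lie above all 6 WT CONT mice for *Fkbp5* (11.34 and up against 11.09 and below) and for *Dusp1* (9.79 and up against 9.63 and below), and the groups overlap for the other 8 genes. Of all probes, 1.43% had this separation in WT. Each panel has its own axis, and levels of different probes cannot be compared.

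The receptor itself came first. For *Nr3c1* the lowest, median and highest log2 values were 12.95, 13.40 and 13.66 in WT CONT. In WT PCN the 5 values were 13.02, 13.18, 13.48, 13.49 and 13.53. The *Pxr*-/- CONT values ran from 13.08 through 13.26 to 13.46, and in *Pxr*-/- PCN from 12.98 through 13.33 to 13.86. All 4 groups overlapped. The difference after PCN was -0.01 in WT (95% interval -0.30 to 0.28) and 0.11 in *Pxr*-/- mice (-0.17 to 0.38), with adjusted p of 0.995 and 0.694. The second probe of the same transcript gave 0.02 (-0.14 to 0.19) and 0.19 (0.04 to 0.35), with adjusted p of 0.957 and 0.158. These intervals do not reach a 1.5-fold change, 0.585 on the log2 scale, in either direction. Between genotypes under CONT the brightest probe differed by -0.09 and the second by -0.19 (adjusted p = 0.930 and 0.445). The 3 genes whose brightest probe followed *Nr3c1* most closely over the 23 arrays were *Jmy*, *Ankrd11* and *Pabpc4l*, with Pearson correlations of 0.819, 0.801 and 0.787. None of these 3 passed the threshold after PCN.

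*Fkbp5* encodes a co-chaperone that lowers the hormone affinity of the receptor and is itself one of the most responsive receptor targets. Its log2 values in WT CONT had a lowest, median and highest of 10.19, 10.62 and 11.09. In WT PCN they were 11.34, 11.89, 11.92, 12.05 and 12.16. The *Pxr*-/- CONT values ran from 10.14 through 10.94 to 11.36, and in *Pxr*-/- PCN from 11.36 through 11.73 to 12.09. All 5 WT PCN mice were above every WT CONT mouse, as was the case for 1.43% of all probes. Of the *Pxr*-/- PCN mice, 4 of 6 were above every control of their genotype and all 6 were above the control mean.

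The difference for *Fkbp5* was 1.24 in WT (SE 0.217, 2.36-fold, adjusted p = 0.00276) and 0.85 in *Pxr*-/- mice (SE 0.206, 1.81-fold, adjusted p = 0.0238). Averaged over genotypes it was 1.05 (SE 0.149, 2.07-fold, 95% interval 0.74 to 1.36, adjusted p = 0.000145). The effects in the 2 genotypes differed by -0.39 (*Pxr*-/- minus WT, 95% interval -1.01 to 0.23, adjusted p = 1), a contrast in which 0.0780% of all probes were called. The interval leaves room for an effect in *Pxr*-/- mice that is smaller than in WT by 1.01 or larger by 0.23.

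The probe of these values lies at chr17:28536060-28536119 (build mm9, transcript NM_010220). A second probe of the same transcript, at chr17:28574995-28575054, gave the same direction with less separation. Its values were 7.68 to 8.88 in WT CONT and 9.09 to 9.92 in WT PCN, again without overlap, as for 1.43% of all probes. The *Pxr*-/- CONT values were 8.16 to 9.48 and those in *Pxr*-/- PCN 8.71 and up, with 2 of 6 mice above every control. The differences were 1.06 in WT (SE 0.275, adjusted p = 0.0606), 0.30 in *Pxr*-/- mice (SE 0.262, adjusted p = 0.568) and 0.68 on average (SE 0.190, adjusted p = 0.0286), and of these the average was called. On this probe the effects in the genotypes differed by -0.76 (95% interval -1.55 to 0.03, adjusted p = 1). The rise in *Pxr*-/- mice thus rested on the brightest probe. With the mean of the gene's probes it was 0.57 (adjusted p = 0.144). It also lost its call without *Pxr*-/- CONT replicate 1 (0.71, adjusted p = 0.0594), without *Pxr*-/- PCN replicate 2 (0.78, adjusted p = 0.0547) and with slide as a fixed block (0.75, adjusted p = 0.0625). The averaged effect was called in all 13 alternatives and in all 23 fits that left out 1 array. An average can be called through WT mice alone, so it does not show a change in *Pxr*-/- mice. *Cyp3a11*, for example, was called on average (1.74) with -0.05 in *Pxr*-/- mice. Another probe with the gene's name, for a different transcript, was above background on 7 of 23 arrays and was not in the table.

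The 3 genes most like *Fkbp5* over the 23 arrays were *Sphk1*, *Il33* and *Ctps*, with Pearson correlations of 0.890, 0.890 and 0.889. *Sphk1* makes sphingosine 1-phosphate, *Il33* encodes an alarm cytokine of barrier tissues and *Ctps* makes cytidine nucleotides. The arrays fall into 4 groups, so these correlations include the PCN difference. *Il33* was called in both genotypes (1.24 and 1.18), as was *Ctps* (0.91 and 0.76), and *Sphk1* in neither (0.45 and 0.38, adjusted p = 0.0824 and 0.0722).

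**Figure D2:**
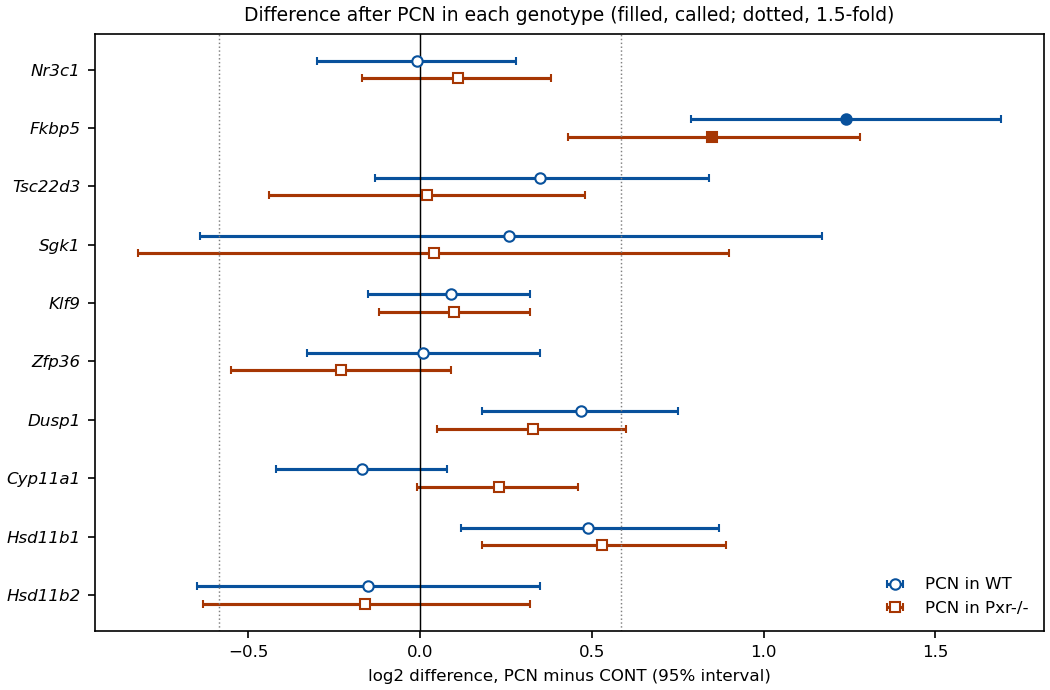
Log2 difference between PCN and CONT for the brightest probe of each member, with its 95% interval, in WT (circles) and *Pxr*-/- mice (squares). Filled symbols were called, and dotted lines mark a 1.5-fold change. *Fkbp5* is filled in both genotypes, at 1.24 and 0.85, and the other 9 members are open.

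*Dusp1* encodes a phosphatase that switches off MAP kinases and is raised early by glucocorticoids. Its probe lies at chr17:26642624-26642683 (mm9). The values in WT CONT had a lowest, median and highest of 9.16, 9.41 and 9.63. In WT PCN the 5 mice were close together, at 9.79, 9.81, 9.85, 9.87 and 9.95. All were above every control, as was the case for 1.43% of all probes in WT. Those in *Pxr*-/- CONT ran from 9.29 through 9.58 to 10.13 and in *Pxr*-/- PCN from 9.84 through 9.92 to 10.35. There 2 of 6 treated mice exceeded every control and all 6 the control mean, and the share of probes with full separation in *Pxr*-/- mice was 1.44%. The difference was 0.47 in WT (SE 0.138, adjusted p = 0.109) and 0.33 in *Pxr*-/- mice (SE 0.131, adjusted p = 0.167), and neither passed. Averaged over genotypes it was 0.40 (SE 0.0949, 1.32-fold), with an adjusted p of 0.0113 and a size under the 1.5-fold limit. Without that limit, 4.43% of all probes passed upward in the averaged comparison, among them 3 of the 10 members, *Fkbp5*, *Dusp1* and *Hsd11b1*. The *Dusp1* effects in the genotypes differed by -0.14 (95% interval -0.54 to 0.25, adjusted p = 1).

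The other receptor targets did not pass in any comparison. *Tsc22d3*, also called Gilz, encodes a leucine zipper protein that carries part of the anti-inflammatory action of glucocorticoids. Its values were 11 to 12.59 in WT CONT (median 11.86) and 12.03, 12.07, 12.22, 12.26 and 12.46 in WT PCN. Those in *Pxr*-/- CONT were 11.30 to 12.57 (median 12.13) and in *Pxr*-/- PCN 11.52 to 12.40 (median 12.09). The treated groups lay inside the range of their controls. The differences were 0.35 in WT (SE 0.233, adjusted p = 0.605) and 0.02 in *Pxr*-/- mice (SE 0.221, adjusted p = 0.978), and the second probe gave 0.37 and -0.10.

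*Sgk1*, a kinase that promotes sodium uptake and is raised by both glucocorticoids and aldosterone, varied most between mice of a group. In WT CONT the values were 11.40 to 14.04 (median 13.41), with replicates 1 and 4 at 11.60 and 11.40 and the other 4 at 13.29 or above. In WT PCN they were 12.77, 12.95, 12.96, 13.04 and 14.09. Those in *Pxr*-/- CONT were 12.16 to 13.99 (median 13.17) and in *Pxr*-/- PCN 12.24 to 13.84 (median 13.07). The differences were 0.26 in WT (95% interval -0.64 to 1.17, adjusted p = 0.887) and 0.04 in *Pxr*-/- mice (-0.82 to 0.90, adjusted p = 0.972). A change as large as that of *Fkbp5* in *Pxr*-/- mice lies within both intervals, so it was not detectable with these mice, and not shown to be absent.

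*Klf9*, a zinc finger factor raised by glucocorticoids, differed by 0.09 in WT (95% interval -0.15 to 0.32) and 0.10 in *Pxr*-/- mice (-0.12 to 0.32), with group means between 10.70 ± 0.18 (SD, n = 6, WT CONT) and 10.90 ± 0.17 (n = 6, *Pxr*-/- PCN). Its second probe gave 0.05 and 0.08. *Zfp36*, whose protein speeds the decay of cytokine mRNAs, differed by 0.01 (-0.33 to 0.35) and -0.23 (-0.55 to 0.09), with group means between 11.81 ± 0.25 (n = 6, *Pxr*-/- PCN) and 12.03 ± 0.29 (n = 6, *Pxr*-/- CONT). For these genes every interval stayed inside a 1.5-fold change.

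Among the control mice, low values of several targets were found in the same animals. WT CONT replicate 4 had the lowest *Sgk1* (11.40), *Tsc22d3* (11) and *Klf9* (10.51) of its group. It also had the highest *Zfp36* (12.39) and *Dusp1* (9.63). In *Pxr*-/- CONT, replicate 4 had the lowest *Tsc22d3* (11.30) and *Klf9* (10.46), and replicate 1 the lowest *Sgk1* (12.16), *Fkbp5* (10.14) and *Dusp1* (9.29). The PCN groups spread less for *Tsc22d3*, with SDs of 0.17 and 0.31 against 0.54 and 0.47 in CONT. These spreads were not tested.

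The 3 remaining members make or inactivate the hormone. *Hsd11b1* encodes the enzyme that regenerates active corticosterone from its inert keto form. Its probe lies at chr1:195048169-195048228 (mm9). The values were 8.35 to 8.71 in WT CONT (median 8.48) and 8.58, 8.80, 8.90, 9.30 and 9.39 in WT PCN, of which 4 were above every control. In *Pxr*-/- CONT they were 8.04 to 9.16 (median 8.30) and in *Pxr*-/- PCN 8.74 to 9.33 (median 8.82), with 2 of 6 above every control and 6 above the control mean. *Pxr*-/- CONT replicate 6 (9.16) was the only control within the treated range. The difference was 0.49 in WT (SE 0.180, adjusted p = 0.232) and 0.53 in *Pxr*-/- mice (SE 0.171, adjusted p = 0.0796). The average was 0.51 (SE 0.124, 1.43-fold, adjusted p = 0.012), again under the 1.5-fold limit, and the effects in the genotypes differed by 0.04 (95% interval -0.47 to 0.55, adjusted p = 1). Without *Pxr*-/- CONT replicate 6 the gene was called in *Pxr*-/- mice (0.69, adjusted p = 0.0175) and on average (0.60, adjusted p = 0.00136). That mouse was the highest control of its group, so leaving it out enlarges the difference. In *Pxr*-/- mice this was the only 1 of 23 fits without 1 array with a call, and 0 of 13 alternatives had one.

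*Hsd11b2*, which inactivates corticosterone, had values of 6.26 to 6.82 in WT CONT, 5.92 to 6.85 in WT PCN, 5.96 to 7.23 in *Pxr*-/- CONT and 5.72 to 7.21 in *Pxr*-/- PCN. The differences were -0.15 (95% interval -0.65 to 0.35) and -0.16 (-0.63 to 0.32), with adjusted p of 0.882 and 0.746.

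*Cyp11a1* encodes the side chain cleavage enzyme, the first step of steroid synthesis. Its 2 probes did not measure the same transcript. The probe for the RefSeq transcript NM_019779 was not well above background on any of the 23 arrays and was not in the table. The probe in the table, at chr9:57854517-57854576 (mm9), was designed on a different cDNA, AK137397, so its values may not stand for the enzyme's mRNA. It gave 6.90 to 7.18 in WT CONT, 6.74 to 7.13 in WT PCN, 6.42 to 7.10 in *Pxr*-/- CONT and 6.79 to 7.26 in *Pxr*-/- PCN. The differences were -0.17 in WT (adjusted p = 0.634) and 0.23 in *Pxr*-/- mice (adjusted p = 0.279), and they differed by 0.40 (95% interval 0.05 to 0.74, adjusted p = 1).

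**Figure D3:**
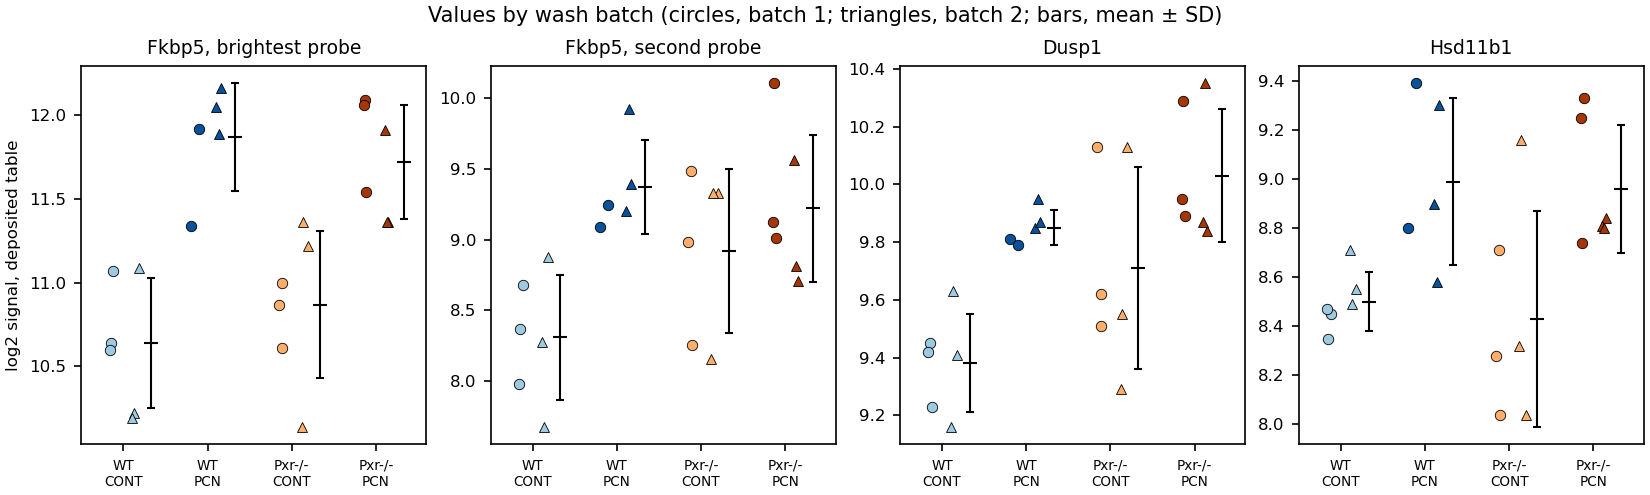
Log2 signal of both *Fkbp5* probes, *Dusp1* and *Hsd11b1* in each mouse, with wash batch 1 as circles and wash batch 2 as triangles, and mean ± SD beside the points. The PCN means lie above the CONT means in both batches and genotypes for the brightest *Fkbp5* probe, *Dusp1* and *Hsd11b1*.

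Within wash batches, which held 2 or 3 mice of each group, the direction was the same. For the brightest *Fkbp5* probe the PCN mean exceeded the CONT mean by 0.86 in batch 1 and 1.53 in batch 2 in WT, and by 1.07 and 0.63 in *Pxr*-/- mice. None of these 4 passed an adjusted p of 0.05 (0.46, 0.0939, 0.201 and 0.319), whereas the average over genotypes did in both batches. *Dusp1* was higher by 0.43 and 0.49 in WT and by 0.29 and 0.37 in *Pxr*-/- mice, and *Hsd11b1* by 0.67 and 0.34 in WT and by 0.76 and 0.31 in *Pxr*-/- mice.

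Between genotypes, no member was called in the limma fit, nor was any for the difference between the effects of PCN, where the unadjusted p was under 0.05 for 1 of 10, *Cyp11a1*, and for 4.52% of all probes. Under CONT, where 0.148% of all probes were called, *Dusp1* was higher in *Pxr*-/- mice by 0.32 (SE 0.131, adjusted p = 0.443), *Fkbp5* by 0.23 (SE 0.206, adjusted p = 0.832) and by 0.61 on its second probe (SE 0.262, adjusted p = 0.478), and *Cyp11a1* was lower, at -0.29 (SE 0.114, adjusted p = 0.423). The unadjusted p was under 0.05 for 2 of the 10 members under CONT, beside 9.03% of all probes. Under PCN, where 0.366% of probes were called, it was under 0.05 for none of the members and for 7.05% of all probes.

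Other genes of the pathway were taken from 8 lists, which were chosen with earlier results of these data known. The first held the receptors, chaperones and coregulators, 14 genes with *Nr3c1* and *Fkbp5* among them. Its median difference was -0.03 in WT and -0.05 in *Pxr*-/- mice, and *Fkbp5* was the only gene called. Without the fold limit, 3 genes passed in *Pxr*-/- mice and 4 on average, beside 3.7% and 9.02% of all probes. One of them was *Fkbp4*, named here after its values were seen. It differed by -0.37 in *Pxr*-/- mice and -0.33 on average (adjusted p = 0.0154 and 0.00126), and by -0.29 in WT (adjusted p = 0.106). The mineralocorticoid receptor *Nr3c2*, which also binds corticosterone, differed by 0.03 and 0.24 (adjusted p = 0.947 and 0.167). *Hsp90aa1*, the chaperone that holds the receptor ready, differed by -0.28 and -0.39 (adjusted p = 0.480 and 0.118). On average it differed by -0.33 (adjusted p = 0.0408), under the 1.5-fold limit.

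Of 39 glucocorticoid-induced genes, 38 were measured, including 6 members. The median difference was 0.36 in WT and 0.17 in *Pxr*-/- mice. In WT 4 genes rose and none fell, in *Pxr*-/- mice 5 rose and none fell, and on average 7 rose and 1 fell. Over all probes the shares called upward were 0.600%, 0.724% and 0.743%. *Anxa1*, which encodes the anti-inflammatory protein annexin A1, rose by 0.77 in WT (adjusted p = 0.000492) and 0.92 in *Pxr*-/- mice (adjusted p = 6.7e-05). *Lcn2*, an iron-binding defence protein that inflammation also raises, rose by 0.78 and 0.76 (adjusted p = 0.00924 and 0.00695), and its second probe differed by 0.44 in WT (adjusted p = 0.297) and rose by 0.69 in *Pxr*-/- mice (adjusted p = 0.0238). The metallothioneins, which bind zinc and respond to metals as well as hormone, rose in *Pxr*-/- mice, *Mt1* by 1.25 and *Mt2* by 1.83 (adjusted p = 0.0149 and 0.0176). In WT they differed by 1.05 and 1.72 (adjusted p = 0.0835 and 0.0504). A dimmer *Mt1* probe was called in neither genotype, with differences of 0.52 in WT and 0.04 in *Pxr*-/- mice (adjusted p = 0.465 and 0.956). *Cyp2b10*, also a target of other xenobiotic receptors, rose by 4.6 in WT (adjusted p = 1.1e-07), differed by 0.71 in *Pxr*-/- mice (adjusted p = 0.252), and the effects differed by -3.9 (adjusted p = 0.000818).

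The glucose-making enzyme *Pck1* rose on average, by 1.14 (adjusted p = 0.0283), and *Tat*, the tyrosine aminotransferase used as a classical receptor target in liver, fell on average, by 1.08 (adjusted p = 0.0193). Neither passed in a single genotype. No gene of this list other than *Cyp2b10* was called for a difference between the effects in the 2 genotypes.

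A list of 22 inflammatory genes that glucocorticoids repress had 18 measured, with median differences of 0.64 in WT and 0.45 in *Pxr*-/- mice. In WT 7 rose and none fell and in *Pxr*-/- mice 5 rose and none fell, beside 0.600% and 0.724% of all probes called upward. All 5 of the latter genes were among the 7. They were the neutrophil chemokine *Cxcl5*, the monocyte chemokine *Ccl2*, the cytokines *Osm* and *Il33*, and *Il6*. The first 4 rose by 1.57, 1.5, 0.80 and 1.24 in WT, and by 1.57, 1.45, 0.67 and 1.18 in *Pxr*-/- mice. *Il6* was well above background on 1 of 6 CONT arrays in each genotype and on all PCN arrays, so it was in the table through its PCN groups, and its differences of 0.79 and 1.09 are set against controls mostly not above background. The other 2 that rose in WT, named here after their values were seen, were the adhesion molecules *Vcam1* and *Icam1* (0.67 and 0.60), which differed by 0.43 and 0.30 in *Pxr*-/- mice. Their second probes were not called in either genotype. *Cxcl1*, another neutrophil chemokine, rose on average by 0.87 (adjusted p = 0.00917). No gene of the list was called for a difference between the genotypes' effects. Both the induced and the repressed list included genes called upward in *Pxr*-/- mice. Among them were *Anxa1* of the first, and *Il33* and *Ccl2* of the second. *Fkbp5* of the first was called there on its brightest probe and not on its second. Whether the receptor had a part in these differences was not tested.

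Markers of some other cell types were also called after PCN, where 0.600% of all probes in WT and 0.724% in *Pxr*-/- mice were called upward. Of 9 measured mast cell markers, *Mcpt1*, *Mcpt2* and *Mcpt4* rose in both genotypes, and the mean log2 level of the list was 6.33 to 6.94 in WT CONT, 7.19 to 7.58 in WT PCN, 6.5 to 7.1 in *Pxr*-/- CONT and 7.33 to 7.77 in *Pxr*-/- PCN. Of 9 neutrophil markers, *S100a8* and *S100a9* rose in both, and the list's level was 7.03 to 7.48, 7.65 to 8.26, 7.26 to 7.55 and 7.68 to 8.66 in the same order. Not all markers of these 2 lists were higher after PCN. Of the mast cell markers 7 were higher and 2 lower in WT, and 8 and 1 in *Pxr*-/- mice. For neutrophils these counts were 7 and 2, and 6 and 3, with median differences of 0.24 and 0.26. None of 9 B cell markers was called, and the list's level was 6.88 to 7.18 in WT CONT, 7.24 to 9.75 in WT PCN, 6.86 to 7.20 in *Pxr*-/- CONT and 6.99 to 8.31 in *Pxr*-/- PCN. The fibroblast list ran from 11.41 to 11.71, 11.33 to 12.45, 11.05 to 11.90 and 11.71 to 12.50, and the absorptive epithelium list from 15.39 to 15.71, 15.44 to 15.64, 15.49 to 15.79 and 15.50 to 15.59, with none of 10 epithelial markers called. Of the fibroblast markers 1 rose in WT and 3 in *Pxr*-/- mice. The other 7 of the 12 cell type lists had these calls, all upward. Smooth muscle had 0 in WT and 2 in *Pxr*-/- mice, macrophages 0 and 1, and T cells, crypt cells, adipose tissue and endothelium 0 and 0. The adrenal cortex list, with 4 of 8 markers measured, had 1 and 0. Its 1 call was *Akr1b7*, whose PCN effect was also called lower in *Pxr*-/- mice than in WT. The T cell list had medians of 0.01 in WT and -0.33 in *Pxr*-/- mice, with 5 and 9 of 10 markers lower. The crypt list had medians of -0.19 and -0.29, with 9 and 6 of 10 lower. The part of these cells in the differences above was not tested.

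**Figure D4:**
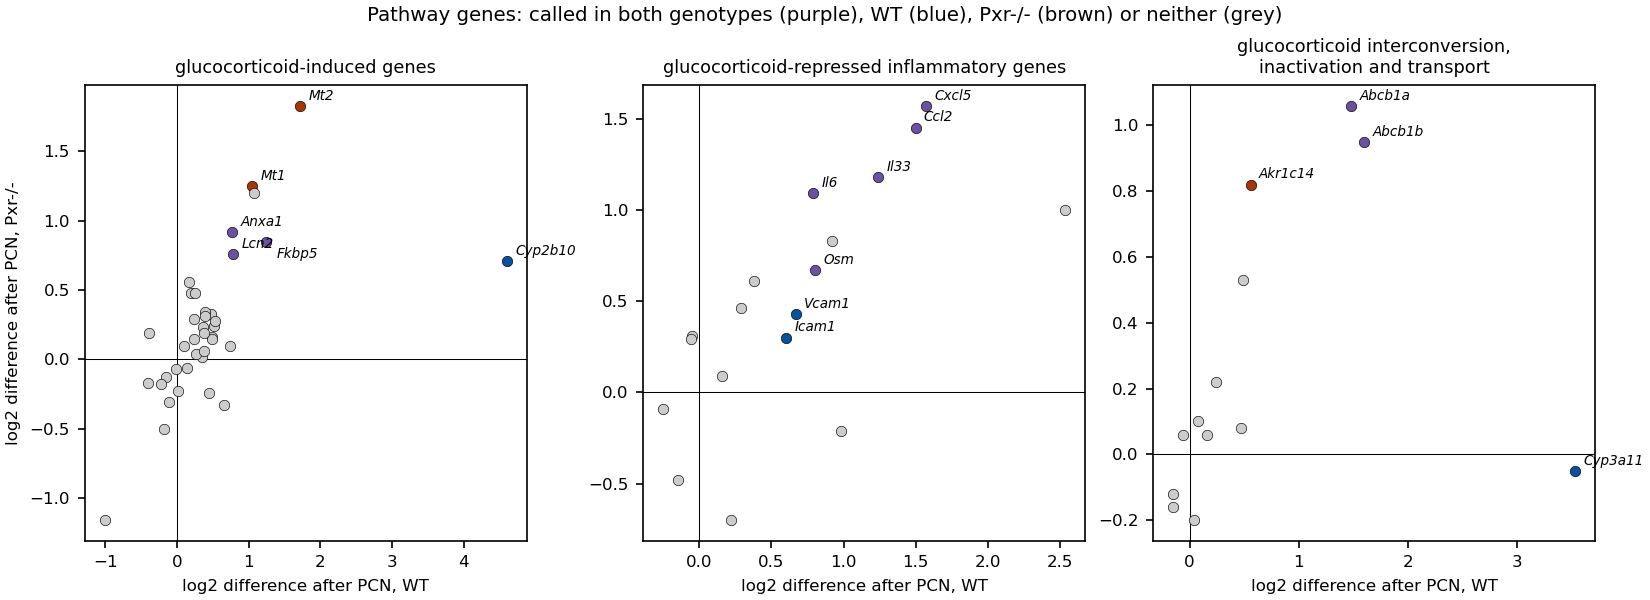
Log2 difference after PCN in WT (horizontal) and in *Pxr*-/- mice (vertical), 1 point per measured gene of 3 lists, coloured by the genotypes in which it was called. *Cyp2b10* and *Cyp3a11* lie far to the right, at 4.6 and 3.53, and at 0.71 and -0.05 vertically, whereas *Fkbp5*, *Anxa1*, *Il33*, *Ccl2*, *Abcb1a* and *Abcb1b* are well above 0 on both axes.

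For glucocorticoid conversion, inactivation and transport, 13 of 17 genes were measured, with medians of 0.24 in WT and 0.08 in *Pxr*-/- mice. In each genotype 3 genes rose and none fell, *Abcb1a* and *Abcb1b* in both, with *Cyp3a11* in WT and *Akr1c14* in *Pxr*-/- mice. The shares of all probes called upward were 0.600% in WT and 0.724% in *Pxr*-/- mice. *Abcb1a* and *Abcb1b* encode the efflux pump that carries steroids out of cells. They rose by 1.48 and 1.60 in WT and by 1.06 and 0.95 in *Pxr*-/- mice (all adjusted p at most 0.00331). A dimmer *Abcb1a* probe rose by 1.14 in WT (adjusted p = 0.000122) and differed by 0.58 in *Pxr*-/- mice (adjusted p = 0.0239), just under the 1.5-fold limit. Their levels in *Pxr*-/- mice lay below those in WT, with CONT means of 12.94 ± 0.33 against 14.32 ± 0.31 for *Abcb1a* and 10.07 ± 0.28 against 11.32 ± 0.30 for *Abcb1b* (SD, n = 6 each, both called). *Akr1c14*, which reduces 3-ketosteroids, rose by 0.82 in *Pxr*-/- mice (adjusted p = 0.0183) and differed by 0.56 in WT (adjusted p = 0.204), and its second probe was not called (0.55 and 0.42).

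Of 18 genes of steroid synthesis 15 were measured, without *Cyp11b1*, *Cyp11b2* and *Hsd3b1*. None of the 15 passed in WT and 1 rose in *Pxr*-/- mice. The gene, *Hsd3b3*, which is named here after its values were seen, differed by 0.20 in WT and rose by 0.73 in *Pxr*-/- mice (adjusted p = 0.735 and 0.0200). *Nr5a2*, the nuclear receptor that drives intestinal steroid synthesis, differed by 0.16 and 0.22 (adjusted p = 0.738 and 0.380). Of 13 genes of epithelial sodium transport, which respond to corticosteroids, 11 were measured, without *Scnn1b* and *Scnn1g*. None of the 11 was called, with medians of 0.04 in both genotypes.

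Of 20 immediate-early genes, which respond within minutes to handling or stress, *Egr3*, well above background on 4 of 6 CONT arrays of each genotype, rose in WT by 0.73 (adjusted p = 0.0203) and none was called in *Pxr*-/- mice, with medians of 0.13 and -0.06. On average *Egr2* was the only one called, at 0.67 (adjusted p = 0.00345), with 0.69 in WT and 0.65 in *Pxr*-/- mice (adjusted p = 0.0939 and 0.0518), and *Egr3* differed by 0.47 (adjusted p = 0.0108), under the 1.5-fold limit. Of 17 clock genes none was called in WT, and in *Pxr*-/- mice *Per3* and *Tef* rose by 0.76 and 0.70 and *Arntl* fell by 1.14 (adjusted p = 0.0220, 0.0217 and 0.00892). *Arntl* differed by -0.19 in WT (adjusted p = 0.828), and the effects in the genotypes differed by -0.94 (adjusted p = 0.879). *Per1*, a clock gene that the receptor raises directly, differed by 0.48 and 0.16 (adjusted p = 0.583 and 0.802). *Egr2*, *Egr3* and *Tef* are named here after their values were seen.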

How the data were processed

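Values came from the log2 table deposited by the authors, who started from each spot's median brightness. By their account a filter on spots came before the log2 step, the washing bath was then removed as a batch, and the CrossNorm method set the arrays on 1 scale. Each column holds the same set of values, and the Spearman correlation with the log2 scanner signal of the same array was 0.9995 to 0.99967 across probes. The rule of the authors' filter is not given in the sources used here. All 37161 probes of the table were well above background on at least 50% of the arrays of a group. The scanner files deposited beside it hold intensity (Agilent Feature Extraction 10.10.1.1, per the file headers), used for background calls and alternatives. Probe names, genes and positions (build mm9) are those of the array design. The exonic or UTR location of probes was not analysed here.

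A single limma fit (limma 3.58.1, R 4.3.3), with terms for wash batch and for the 4 groups, gave 6 contrasts, 2-sided, with Benjamini-Hochberg adjustment over all probes. Intervals are 95%. The method was tested on simulated data. The number of arrays limits the precision, and p-values measure the spread between mice.

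The members and lists were chosen with earlier results of these data known. Named genes were the members, *Nr1i2*, *Cyp3a11*, *Cyp2b10*, up to 20 list genes called in a PCN comparison with the largest change (26 were called), and the 3 genes most correlated with *Nr3c1* and with any called member. *Nr3c2*, *Hsp90aa1*, *Nr5a2*, *Per1*, *Fabp6* and *Slc10a2* are named as background. Markers of cell types were named from the lists' calls. Alternatives were 13 other settings and 23 fits without 1 array.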

Additional observations from a re-analysis of the deposited data

Results flagged for a closer look

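*Sgk1* in WT PCN replicate 3 was 14.09, apart from the other 4 mice of the group at 12.77 to 13.04, by Dixon's test of the highest value. Over 52 combinations of gene and group tested, chance alone gives a value of this kind in about 1 of 20. The difference after PCN was not called with or without this mouse.

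*Cyp3a11* and *Cyp2b10* had PCN effects that differed between genotypes by the interaction contrast, by -3.57 and -3.9 on the log2 scale (*Pxr*-/- minus WT, adjusted p = 0.000818 for each). No member of the glucocorticoid set passed this contrast.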

How the results depend on the processing

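The averaged *Fkbp5* effect kept its direction and call in all 13 alternatives (0.86 to 1.08) and in all 23 fits without 1 array (0.97 to 1.13). In WT *Fkbp5* was called in 11 of 13 alternatives and in all 23 fits, and not within wash batch 1 (0.86) or 2 (1.53). In *Pxr*-/- mice it was called in 9 of 13, and not with slide as a fixed block (0.75), with the mean of all probes of a gene (0.57), or within wash batch 1 (1.07) or 2 (0.63). Without 1 array it lay between 0.71 and 0.96. In these settings the count of called members was 0. Without 1 array that count was 0 to 2 in *Pxr*-/- mice and 1 to 2 on average, and *Hsd11b1* lay between 0.45 and 0.69 and between 0.46 and 0.60. Without a fold threshold 3 members passed on average, with *Dusp1* at 0.40 and *Hsd11b1* at 0.51. Both missed an adjusted p of 0.05 within single wash batches (0.389 and 0.138 for *Dusp1*, 0.113 and 0.329 for *Hsd11b1*) and passed in the other 11 alternatives. Within a batch there were fewer mice, and otherwise the cause was not tested.

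With no fold threshold, genes called up were 8 glucocorticoid-induced genes in *Pxr*-/- mice and 14 on average, 10 repressed inflammatory genes on average and 7 genes of conversion and transport on average. At this setting 3.7% of all probes passed in *Pxr*-/- mice in either direction. On average 9.02% did, and 4.43% passed upward. Within wash batch 1 the induced, repressed and conversion lists had 0, 2 and 0 genes called up in *Pxr*-/- mice, the induced and repressed lists 1 and 0 in WT, and 3 and 2 on average. Within wash batch 2 the induced and repressed lists had 2 and 2 in *Pxr*-/- mice, and the induced, repressed and conversion lists 1, 1 and 1 in WT.

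Differences near 0 that were not called changed sign. In WT these were *Nr3c1* with the mean of probes (0.01) and within batch 1 (0.05), *Klf9* within batch 1 (-0.04), *Sgk1* within batch 2 (-0.07), and *Zfp36* with centring on the array median (-0.05) and within batch 2 (-0.10). In *Pxr*-/- mice they were *Klf9* within batch 2 (-0.08), *Sgk1* with the processed signal (-0.01), array centring (-0.03) and within batch 1 (-0.41), and *Tsc22d3* with the mean of probes (-0.04), the processed signal (-0.03), array centring (-0.05), slide as a fixed block (-0.03) and within batch 2 (-0.20). The difference between genotypes' effects turned for *Fkbp5* within batch 1 (0.21) and for *Hsd11b1* with slide as a fixed block (-0.03), the replicate block (-0.03) and within batch 2 (-0.04). *Nr3c1* under CONT turned within batch 2 (0.05). Without 1 array the ranges were -0.09 to 0.07 for *Nr3c1*, -0.07 to 0.52 for *Sgk1* and -0.09 to 0.13 for *Zfp36* in WT, -0.13 to 0.25 for *Sgk1* and -0.13 to 0.14 for *Tsc22d3* in *Pxr*-/- mice, and -0.06 to 0.19 for the *Hsd11b1* difference between effects.

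Replicate numbers name different mice, and deviations of same-numbered mice correlated between -0.206 and 0.429. With the replicate block, *Fkbp5* was 1.26 in WT, 0.85 in *Pxr*-/- mice and 1.05 on average (adjusted p = 0.011, 0.0474 and 0.000847), and the block changed no call of a member. Over all probes, the counts called moved by over 1.5 times with the processed signal (647 against 349 on average), with slide as a fixed block (257 against 55 between genotypes under CONT, and 17 against 29 for the difference between effects), without a fold threshold (488 against 257 in WT, 1375 against 352 in *Pxr*-/- mice and 3353 against 349 on average) and within wash batches (47 and 49 in WT, 10 and 159 in *Pxr*-/- mice).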
